A study of Homo sapiens with 5 samples.

Results

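SU86.86 and L3.6, a pair of human pancreatic carcinoma lines known as derived from or selected through liver metastases, were set against PANC1 and HPAF1, across all genes of a whole-transcriptome array. The samples were chosen by their line names, so that 4 of the 5 arrays in the series entered the comparison, 2 on each side. SU86.86 was established from a liver metastasis, and L3.6 was selected by passage of human pancreatic carcinoma cells through liver metastases in nude mice. PANC1 was established from a primary pancreatic carcinoma, and the HPAF lines came from the ascites of a patient with metastatic disease, so that the second side is not a side of non-metastatic tumours. These origins are background knowledge and are not stated in the sample labels, which call all lines pancreatic cancer lines. HPDE, known as duct epithelium of a normal pancreas made immortal, was on neither side and is given as a further value. No line was treated, each was grown as its supplier recommends, and each was measured once by hybridising labelled total RNA to a one-colour oligonucleotide array.

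Pancreatic ductal carcinoma spreads early and most often to the liver. Cells that settle there have to leave the primary tumour, pass through the portal blood and grow among hepatocytes, and genes of adhesion, matrix breakdown, growth factor signalling and nutrient supply are commonly studied in this setting. A comparison of established lines reads what differs between tumours of different patients after long growth on plastic, and metastatic origin, patient, mutation and growth medium cannot be told apart here. With 1 culture per line, the error of every difference is the spread between lines of one side and not between cultures of a line.

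Levels are given as log2(intensity + 71.1), and differences are the mean of SU86.86 and L3.6 minus the mean of PANC1 and HPAF1 on that scale. A gene was taken as apart when both lines of one side lay beyond both of the other, and as apart by 2-fold when the means of the sides also differed by 1 or more on the log2 scale. The added constant understates the fold change of dim genes. The arrays had median intensities of 137 and 142 in SU86.86 and L3.6, against 138 and 143 in PANC1 and HPAF1. Of the genes tested, 12910 and 13237 reached the level filter (log2 7.72) in SU86.86 and L3.6, and 12929 and 13189 did so in PANC1 and HPAF1. The 18 spike-in probe sets had a median SD of 0.06 between the 4 arrays.

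Among 14894 genes tested, 1944 (13.1%) were higher in both SU86.86 and L3.6 than in both PANC1 and HPAF1, and 2248 (15.1%) were lower in both. Apart by 2-fold, which is judged on the side means, were 327 genes (2.2%) on the higher side and 288 genes (1.93%) on the lower side. The nearest lines of opposite sides were themselves 2-fold or more apart at 71 genes on the higher side and 57 on the lower side. The 2-fold counts of list members given below stand beside these shares of all genes, except where a line was left out. Leaving out a line raised the shares, to between 3.72% and 7.06% above and between 3.28% and 7.04% below. In limma's moderated test 0 genes passed an adjusted p of 0.05 (0%), the smallest adjusted p being 0.853. At an unadjusted p under 0.05 there were 533 genes, of which 261 were higher and 272 lower, where 744.7 would be reached by chance. With 2 lines on each side the order of the lines alone cannot reach significance, so the genes below are described by their values and none is claimed to differ beyond the spread between lines.

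The lines of a side differed from each other as well. The median absolute difference over all genes was 0.29 between SU86.86 and L3.6 and 0.34 between PANC1 and HPAF1. A difference of 2-fold or more separated SU86.86 from L3.6 at 1584 genes and PANC1 from HPAF1 at 2914 genes. Of the 995 genes whose side means differed by 2-fold, 380 (38.2%) had overlapping sides. At the threshold, RB1 was just inside at a difference of 1.001 and RFC5 just outside at 0.9996.

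**Figure D1:**
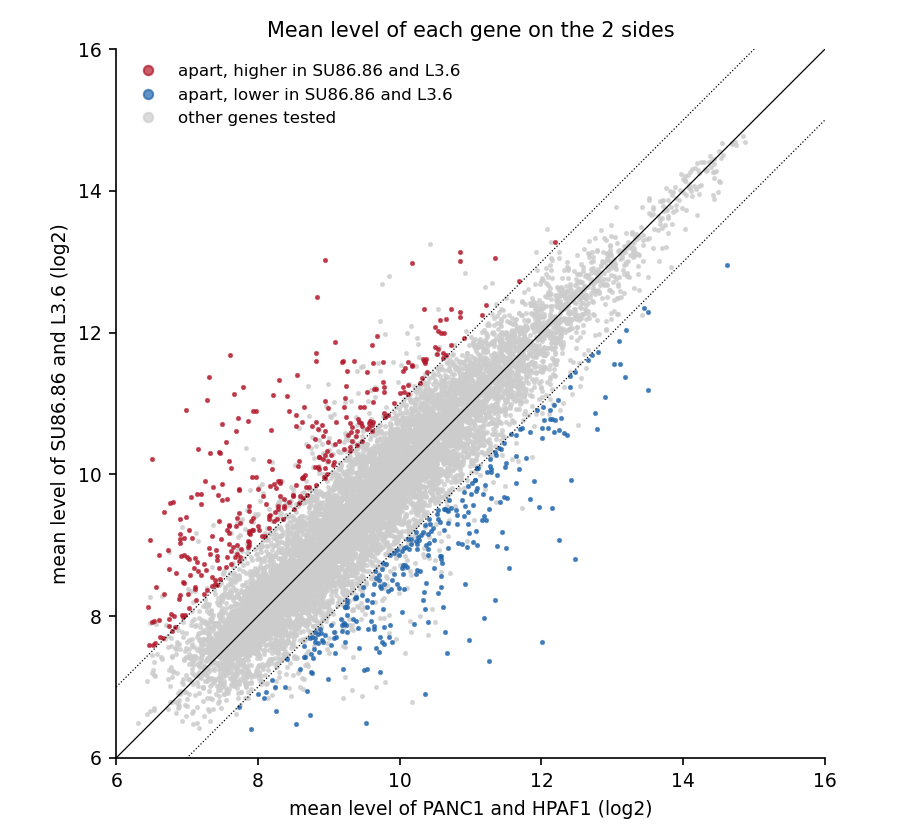
Each point is a gene, with its mean level in SU86.86 and L3.6 on the vertical axis and its mean level in PANC1 and HPAF1 on the horizontal axis, both as log2(intensity + constant). The solid line marks equality and dotted lines a 2-fold difference. Red marks the genes apart by 2-fold and higher in SU86.86 and L3.6 and blue those lower. Grey points beyond the dotted lines are among the 380 genes whose sides overlapped. XIST and genes of chromosome Y are not drawn.

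The widest gaps above PANC1 and HPAF1 belonged to genes of varied function. LY6K, a surface protein known as a cancer-testis antigen, had levels of 10.93 and 11.82 in SU86.86 and L3.6, against 7.65 and 6.96 in PANC1 and HPAF1 (difference 4.07 ± 0.45, SE of the limma fit). SHISA2, of a family that in Xenopus holds back Wnt and FGF receptors, had 10.71 and 9.74 in SU86.86 and L3.6, against 6.51 and 6.49 in PANC1 and HPAF1. PLAT, the tissue plasminogen activator, had 11.75 and 10.08 in SU86.86 and L3.6, against 6.86 and 7.12 in PANC1 and HPAF1 (difference 3.93 ± 0.64). For LY6K, SHISA2 and PLAT both PANC1 and HPAF1 lay under the level filter, so that these differences are against the background of the array. C3, the central protein of complement, had 11.41 and 10.87 in SU86.86 and L3.6, against 7.22 and 8.11 in PANC1 and HPAF1. The zinc and manganese importer SLC39A8 had 11.20 and 9.70 in SU86.86 and L3.6, against 7.64 and 7.44 in PANC1 and HPAF1, both again under the filter. GSDME, a gasdermin that forms membrane pores after caspase cleavage, had 10.88 and 10.35 in SU86.86 and L3.6, against 8.28 and 7.11 in PANC1 and HPAF1. In each of these genes the gap between the nearest lines of opposite sides was at least 2.06 on the log2 scale. TUSC3, DPYSL3, PRDM13, KCTD12 and EYA4 completed the widest gaps together with FST, KRT5, S100A2 and TRIM29, described with their groups.

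The widest gaps below PANC1 and HPAF1 included genes of secretion and DNA repair. TM4SF18, a tetraspan membrane protein, had 7.45 and 7.30 in SU86.86 and L3.6, both under the level filter, against 11.36 and 11.17 in PANC1 and HPAF1 (difference -3.89 ± 0.21, limma adjusted p = 0.853). PKDCC, a secreted protein kinase, had 7.42 and 7.53 in SU86.86 and L3.6, against 10.71 and 10.63 in PANC1 and HPAF1 (difference -3.20 ± 0.19, limma adjusted p = 0.853). MGMT removes methyl groups from guanine in DNA and so repairs the damage done by alkylating drugs. Its levels were 6.80 and 7.0 in SU86.86 and L3.6, under the filter, against 10.003 and 10.70 in PANC1 and HPAF1, with 8.60 in HPDE. SYTL2, a RAB27 effector in vesicle release, had 8.28 and 6.98 in SU86.86 and L3.6, against 12.41 and 11.62 in PANC1 and HPAF1, the difference of -4.38 ± 0.58 being the largest of the comparison. RAB27B itself had 8.22 and 7.98 in SU86.86 and L3.6, against 8.92 and 11.79 in PANC1 and HPAF1. NTS, the precursor of the gut peptide neurotensin, had 6.49 in both SU86.86 and L3.6, against 9.95 and 9.10 in PANC1 and HPAF1. The neurotensin receptor NTSR1, looked up after these values were seen, had 7.27 and 8.36 in SU86.86 and L3.6, against 9.63 and 9.49 in PANC1 and HPAF1. PROS1 (the anticoagulant protein S), FBXL16, CRIP1, BHLHE41, CLU, MOSPD1 and SOX4 were also among the 15 widest gaps.

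**Figure D2:**
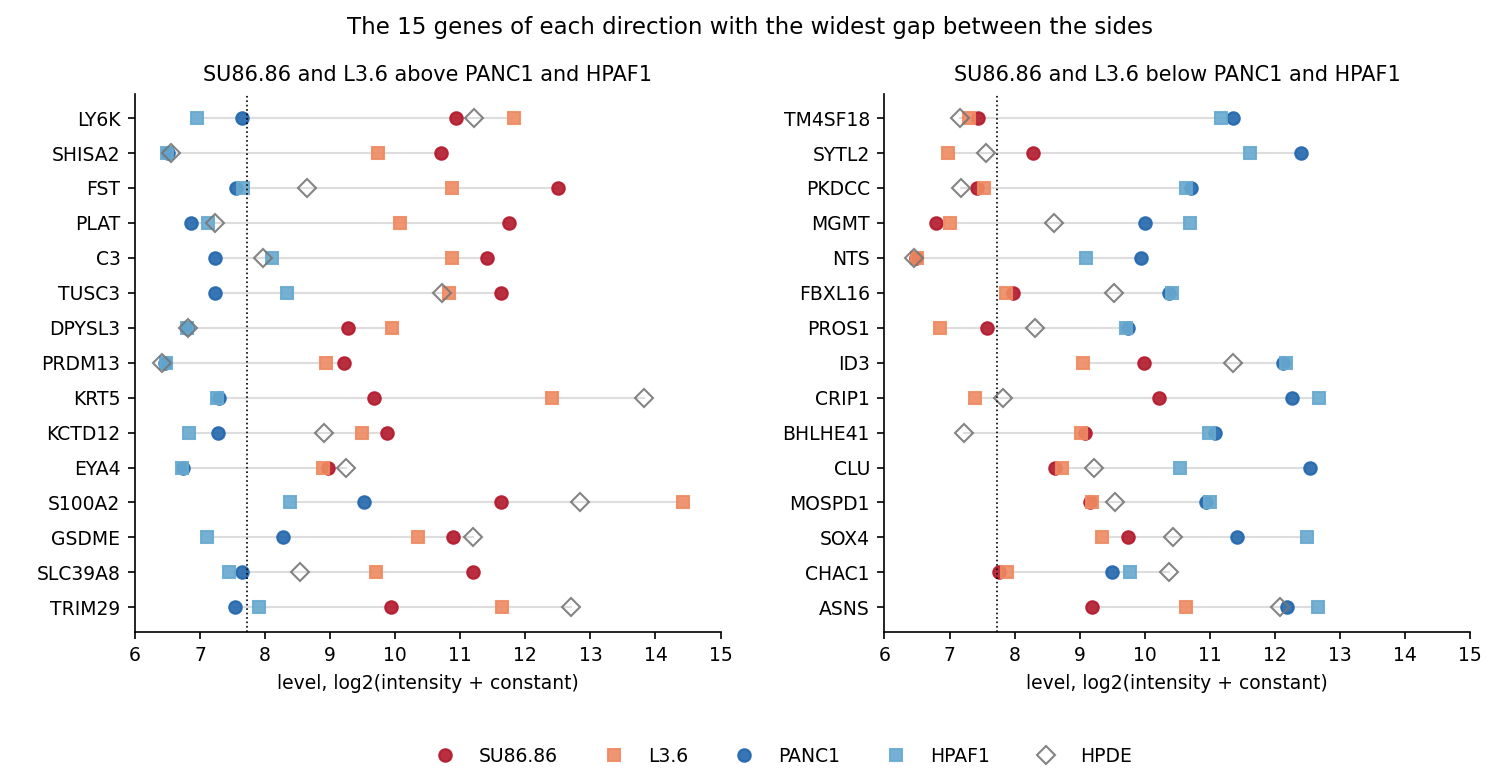
Levels on the horizontal axis, log2(intensity + constant), of the 15 genes with the widest gap in each direction, 1 array per point. Red and orange are SU86.86 and L3.6, dark and light blue are PANC1 and HPAF1, open diamonds are HPDE, and the dotted line is the level filter of 7.72. HPDE lies beside SU86.86 and L3.6 for LY6K and GSDME and beside PANC1 and HPAF1 for SHISA2 and ASNS.

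Genes of epithelial adhesion and polarity did not separate the sides: 0 of 24 tested were apart by 2-fold in either direction, with a median difference of 0.18 against -0.02 over all genes. PANC1 and HPAF1 lay on opposite ends. Without HPAF1 15 of 24 were above by 2-fold (median 1.33), where 4.79% of all genes were so. Without PANC1 9 were below (median -0.92), where 7.04% of all genes were so. CDH1, the E-cadherin of adherens junctions, had 12.73 and 9.92 in SU86.86 and L3.6, against 8.61 and 12.90 in PANC1 and HPAF1. PANC1 was the lowest line and HPAF1 the highest. EPCAM, an epithelial adhesion protein, had 13.19 and 13.10 in SU86.86 and L3.6, against 10.80 and 13.71 in PANC1 and HPAF1, and the duct keratin KRT19 had 13.52 and 13.40 in SU86.86 and L3.6, against 9.84 and 14.32 in PANC1 and HPAF1. The same order, with PANC1 low and the other 3 lines high, gave large mean differences that overlapped at MAL2 (2.95 ± 2.06) and KRT7 (2.82 ± 2.14). The 2 further probe sets of KRT7 differed by 0.12 and 0.19. Of 19 simple-epithelial keratin and duct genes, FOXA1 and SPP1 (osteopontin) were apart by 2-fold above and FOXA2 below. The pioneer factor FOXA1 had 10.16 and 11.10 in SU86.86 and L3.6, against 7.02 and 9.34 in PANC1 and HPAF1, and its relative FOXA2 had 8.88 and 7.88 in SU86.86 and L3.6, against 10.73 and 9.40 in PANC1 and HPAF1.

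Among 17 genes of desmosomes and stratified keratins, 4 were apart by 2-fold above and 1 below, where 2.2% and 1.93% of all genes were so. The median difference was 0.31. It was 0.95 without HPAF1 and 0.05 without PANC1. KRT5, a keratin of basal cells in stratified epithelium, had 9.68 and 12.41 in SU86.86 and L3.6, against 7.30 and 7.26 in PANC1 and HPAF1, with 13.83 in HPDE. Its usual partner KRT14 lay under the filter in all 4 carcinoma lines, at 6.99 and 7.44 in SU86.86 and L3.6, against 7.19 and 7.39 in PANC1 and HPAF1. TRIM29, another gene of basal epithelia, had 9.94 and 11.65 in SU86.86 and L3.6, against 7.53 and 7.91 in PANC1 and HPAF1. KRT13 rested on L3.6, with 7.74 in SU86.86 and 12.97 in L3.6, against 7.15 in both PANC1 and HPAF1. The desmosomal plaque protein PKP3 had 11.31 and 11.003 in SU86.86 and L3.6, against 8.47 and 10.60 in PANC1 and HPAF1. The desmosomal cadherin DSC2 went the other way, with 8.54 and 9.15 in SU86.86 and L3.6, against 9.78 and 11.39 in PANC1 and HPAF1.

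Signature genes of the published classical and basal-like subtypes of pancreatic cancer were mostly overlapping. Of 18 basal-like signature genes 2 were apart by 2-fold above, S100A2 and TNS4, and 0 below, with a median of 0.42. That median was -0.18 without SU86.86, -0.18 without PANC1 and 1.15 without HPAF1. The last had 9 genes above, where 4.79% of all genes were above. S100A2, a calcium-binding protein, had 11.63 and 14.42 in SU86.86 and L3.6, against 9.52 and 8.37 in PANC1 and HPAF1. Of 23 classical signature genes TFF1 was apart by 2-fold above and AGR2 below, with a median of -0.42. That median was 0.15 without HPAF1, with 6 genes above and 1 below, where 4.79% and 4.59% of all genes were so. Without PANC1 it was -1.42, with 1 above and 12 below, where 7.06% and 7.04% of all genes were so. AGR2, a protein disulfide isomerase of mucus-secreting cells, had 12.77 and 9.62 in SU86.86 and L3.6, against 13.48 and 13.52 in PANC1 and HPAF1. TFF1, a trefoil peptide, had 11.26 in SU86.86 and 8.67 in L3.6, against 8.66 and 8.60 in PANC1 and HPAF1, so that only SU86.86 stood off. Among 27 mucins and mucin-type glycosyltransferases, GALNT6 and GALNT12 were apart by 2-fold above and 0 below.

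In the mesenchymal list 4 of 21 genes were apart by 2-fold above and 0 below, where 2.2% and 1.93% of all genes were so. The median was 0.79. Without SU86.86 that median was 0.03, without HPAF1 it was 0.11 and with probe sets specific to 1 transcript it was 0.23. COL4A1, a chain of basement membrane collagen, had 8.13 and 10.81 in SU86.86 and L3.6, against 6.69 and 6.66 in PANC1 and HPAF1. COL4A2, of the same list, overlapped, with 7.48 and 11.09 in SU86.86 and L3.6, against 6.98 and 7.74 in PANC1 and HPAF1. SNAI2, a repressor of epithelial genes, had 10.43 and 10.94 in SU86.86 and L3.6, against 6.82 and 10.26 in PANC1 and HPAF1, and the membrane linker MSN had 12.02 and 11.89 in SU86.86 and L3.6, against 11.79 and 7.57 in PANC1 and HPAF1. SNAI2 was thus set apart mainly by PANC1 and MSN mainly by HPAF1. AXL, a receptor tyrosine kinase, had 11.13 and 12.06 in SU86.86 and L3.6, against 11 and 9.70 in PANC1 and HPAF1. VIM, the intermediate filament of mesenchymal cells, overlapped, with 12.71 and 13.84 in SU86.86 and L3.6, against 14.74 in PANC1 and 9.52 in HPAF1.

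For matrix and adhesion, the counts were 1 higher and 1 lower by 2-fold in each of 3 lists: 14 integrin subunits, 10 laminin and basement membrane genes and 26 matrix proteases and plasminogen genes. ITGB8, whose integrin activates latent TGF-beta, had 10.64 and 9.95 in SU86.86 and L3.6, against 6.64 and 8.01 in PANC1 and HPAF1. Its partner subunit ITGAV had 11.10 and 10.03 in SU86.86 and L3.6, against 11.62 and 11.52 in PANC1 and HPAF1. LAMB3, a chain of laminin-332, was low in PANC1 alone, with 12.31 and 10.89 in SU86.86 and L3.6, against 7.53 and 10.87 in PANC1 and HPAF1. The linker NID1 had 8.77 and 6.93 in SU86.86 and L3.6, against 10.16 and 9.39 in PANC1 and HPAF1. Beside PLAT, the urokinase gene PLAU overlapped, at 12.43 and 11.13 in SU86.86 and L3.6, against 12.01 and 12.08 in PANC1 and HPAF1. The lysosomal protease CTSB had 10.94 and 10.30 in SU86.86 and L3.6, against 11.55 and 12.96 in PANC1 and HPAF1.

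Of 13 genes of the EGF receptor family, TGFA, HBEGF and LRIG1 were apart by 2-fold above and ERRFI1 below. Over all genes 2.2% were above and 1.93% below. The list median of 0.28 was -0.17 without PANC1, with 1 above and 2 below, where 7.06% and 7.04% of all genes were so. Without HPAF1 it was 0.59, with 6 above and 1 below, where 4.79% and 4.59% were so. Averaging the probe sets of each gene gave 1 above and 1 below. HBEGF had 2 further probe sets, at 0.09 and 1.69, and LRIG1 had 1 at 0.32. TGFA had 12.24 and 11.50 in SU86.86 and L3.6, against 7.02 and 11.17 in PANC1 and HPAF1, and HBEGF had 11.86 and 11.03 in SU86.86 and L3.6, against 8.62 and 10.45 in PANC1 and HPAF1. For both ligands PANC1 was far the lowest line and HPAF1 lay just under L3.6. LRIG1 and ERRFI1 are feedback inhibitors of the receptor. LRIG1 had 8.32 and 9.30 in SU86.86 and L3.6, against 7.32 and 6.73 in PANC1 and HPAF1, whereas ERRFI1 had 12.54 and 10.58 in SU86.86 and L3.6, against 12.83 and 13.21 in PANC1 and HPAF1. DUSP4, a phosphatase induced by ERK signalling, had 11.32 and 12.12 in SU86.86 and L3.6, against 6.97 and 10.67 in PANC1 and HPAF1. In the MAPK and YAP target list, 2 of 26 genes were apart by 2-fold above and 1 below, and of 24 other receptor tyrosine kinases 0 were apart by 2-fold either way.

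In the TGF-beta and BMP list an activin subunit and its antagonist lay on the higher side, and ID2, ID3, SMAD7, GDF15 and LTBP1 on the lower. TGF-beta, activins and BMPs signal through SMAD proteins, follistatin binds activins outside the cell, SMAD7 inhibits the receptors, and ID genes are classical BMP targets. Of 34 members 2 were apart by 2-fold above and 5 below, where 2.2% and 1.93% of all genes were so. Negative differences were found at 24 of 34, with a median of -0.40, while 47.3% of all genes had positive ones. FST (follistatin) had 12.50 and 10.88 in SU86.86 and L3.6, against 7.55 and 7.67 in PANC1 and HPAF1 (difference 4.08 ± 0.62), and INHBA, the activin A subunit, had 11.25 and 8.19 in SU86.86 and L3.6, against 7.15 and 7.23 in PANC1 and HPAF1. FST and INHBA were under the level filter in both PANC1 and HPAF1. ID3 had 9.99 and 9.05 in SU86.86 and L3.6, against 12.13 and 12.18 in PANC1 and HPAF1 (difference -2.63 ± 0.39). ID2 had 9.91 and 8.01 in SU86.86 and L3.6, against 10.28 and 12.71 in PANC1 and HPAF1. ID1 overlapped, with 12.22 and 12.99 in SU86.86 and L3.6, against 12.82 and 13.94 in PANC1 and HPAF1. SMAD7 had 7.96 and 7.31 in SU86.86 and L3.6, against 8.87 and 9.59 in PANC1 and HPAF1. GDF15, a stress-induced ligand of the family, had 7.12 and 9.34 in SU86.86 and L3.6, against 10.23 and 12.46 in PANC1 and HPAF1. LTBP1, which stores latent TGF-beta in the matrix, was high in PANC1 alone, with 8.22 and 8.37 in SU86.86 and L3.6, against 10.52 and 8.42 in PANC1 and HPAF1. SMAD4, a tumour suppressor often lost in pancreatic cancer, overlapped at 8.63 and 9.48 in SU86.86 and L3.6, against 9.87 and 9.37 in PANC1 and HPAF1. With 1 line left out in turn, the median of the list lay between -0.42 and -0.15. With probe sets specific to 1 transcript it was -0.08, and 1 of 27 members was below by 2-fold.

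Cytokines and chemokines gave 3 of 25 genes apart by 2-fold above and 0 below, where 2.2% and 1.93% of all genes were so. The median of 0.13 was 0.47 without L3.6, 0.46 without HPAF1 and -0.06 without SU86.86. The neutrophil-attracting chemokine CXCL5 had 13.36 and 11.66 in SU86.86 and L3.6, against 6.45 and 11.21 in PANC1 and HPAF1. CXCL6, of the same list, had 10.10 and 7.62 in SU86.86 and L3.6, against 6.60 and 6.61 in PANC1 and HPAF1. It thus passed the level filter in SU86.86 alone. CXCL8, of the same family, overlapped because HPAF1 reached L3.6, at 12.15 and 10.35 in SU86.86 and L3.6, against 6.89 and 10.54 in PANC1 and HPAF1. IL1B stood off in SU86.86 alone, with 11.21 there and 8.18 in L3.6, against 8.15 and 7.99 in PANC1 and HPAF1. In the NF-kB list 1 of 18 genes was apart by 2-fold above and 1 below. TNFAIP3, an NF-kB-induced inhibitor of the pathway, had 11.92 and 9.76 in SU86.86 and L3.6, against 8.26 and 8.82 in PANC1 and HPAF1, while the kinase adaptor IRAK2 had 9.26 and 8.63 in SU86.86 and L3.6, against 9.85 and 10.64 in PANC1 and HPAF1. Among 19 cytokine and death receptors TNFRSF10A, IL1R2 and FAS were apart by 2-fold above and IL13RA1 below. The death receptor FAS had 8.79 and 9.48 in SU86.86 and L3.6, against 8.28 and 7.92 in PANC1 and HPAF1.

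Interferon-stimulated genes gave 0 of 35 apart by 2-fold above and 2 below, RIGI and IFI44L. The median of -0.51 turned on which of PANC1 and HPAF1 was used: it was 0.69 without HPAF1 and -1.50 without PANC1. BST2 shows this, with 6.84 and 7.08 in SU86.86 and L3.6, against 6.74 in PANC1 and 11.91 in HPAF1. MHC class I and antigen processing genes had a median of 0.51 with 0 of 15 apart in either direction. The median was 1.35 without L3.6 and 1.06 without HPAF1, each with 8 genes above by 2-fold, against 0.01 without PANC1 and -0.02 without SU86.86. Of all genes 5.18% were above without L3.6 and 4.79% without HPAF1. HLA-B, which presents peptides to T cells, had 13.94 and 12.34 in SU86.86 and L3.6, against 11.12 and 12.71 in PANC1 and HPAF1.

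Genes of amino acid supply had the largest count of members on the lower side. When amino acids run short or proteins misfold, translation of the transcription factor ATF4 goes up, and ATF4 then drives amino acid synthesis, transport and stress genes. Of 24 tested members 6 were apart by 2-fold below and 0 above, where 1.93% and 2.2% of all genes were so. At any size 10 were apart below, where 15.1% of all genes were so. ASNS, which makes asparagine, had 9.19 and 10.64 in SU86.86 and L3.6, against 12.19 and 12.66 in PANC1 and HPAF1 (difference -2.51 ± 0.58). CHAC1, which degrades glutathione, had 7.76 and 7.89 in SU86.86 and L3.6, against 9.50 and 9.77 in PANC1 and HPAF1 (difference -1.81 ± 0.22). Of these CHAC1 had near-equal values within each side. TRIB3, a pseudokinase that restrains ATF4, had 9.83 and 10.32 in SU86.86 and L3.6, against 10.70 and 12.66 in PANC1 and HPAF1. PSAT1, of serine synthesis, had 9.90 and 11.67 in SU86.86 and L3.6, against 12.36 and 11.88 in PANC1 and HPAF1. The neutral amino acid carrier SLC38A2 had 11.38 and 12.37 in SU86.86 and L3.6, against 12.71 and 13.48 in PANC1 and HPAF1, and the stress factor DDIT3 (CHOP) had 9.23 and 9.52 in SU86.86 and L3.6, against 9.65 and 11.42 in PANC1 and HPAF1. In all 6 genes HPDE had 10.37 or more and lay above both SU86.86 and L3.6. ATF4 mRNA itself had 12.39 and 12.60 in SU86.86 and L3.6, against 12.98 and 13.15 in PANC1 and HPAF1, apart by less than 2-fold. SLC7A5, another ATF4-responsive carrier, went the other way, with 12.02 and 12.53 in SU86.86 and L3.6, against 11.53 and 11.84 in PANC1 and HPAF1. PHGDH, the first enzyme of serine synthesis, overlapped, with 9.85 and 10.98 in SU86.86 and L3.6, against 11.83 and 9.09 in PANC1 and HPAF1. The count below was between 4 and 8 when 1 line was left out in turn, where 3.28% to 7.04% of all genes were below. It was 4 without SU86.86, where 4.65% of all genes were below. With probe sets specific to 1 transcript it was 3 of 14, where 1.76% of all genes were below.

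The promoters of the 6 genes were searched for the ATF4 element TGATGNAA on both strands, in the RefSeq windows of GRCh38.p14 that run 250 bases before to 50 after the start of each gene. This element was chosen after the values were seen. It matched in 2 of the 6, while the E-box CACCTG, searched in the same way, matched in 3. The AP-1 and ETS motifs given below matched in 1 each, and the NF-kB, TEAD, IRF and E2F motifs in 0. The 60 bases around each match of the ATF4 element are shown with the element in capitals. They are shown because these windows hold the sequence through which ATF4 is known to act on ASNS. The ASNS window lies at chr7:97872443-97872502 on the minus strand and its match starts 68 bases before the start site. The CHAC1 window lies at chr15:40953236-40953295 on the plus strand, its match starts 209 bases before the start site, and the element reads on the opposite strand there.
ASNS: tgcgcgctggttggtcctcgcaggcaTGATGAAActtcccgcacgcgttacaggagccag
CHAC1: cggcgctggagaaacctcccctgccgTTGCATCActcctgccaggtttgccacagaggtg
The element was in 3.42% of 234 promoters of genes apart by 2-fold below, 1.18% of 255 promoters of those above, 1.99% of the 11885 promoters of tested genes and 3.67% of all 27305 windows. A match is a description of letters and not of binding.

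Other motifs were searched in the same windows, on both strands. The AP-1 motif TGANTCA was in 8.24% of promoters of genes above, 3.85% of those below and 5.15% of those of all tested genes. The NF-kB motif GGNNTTTCC was in 9.41%, 5.56% and 6.62% of the same sets, and the E2F motif TTTNGCGC in 4.31%, 0.855% and 2.74%. Each of these 3 motifs was more frequent above than below. The TEAD motif CATTCC was in 12.5% above, 10.7% below and 11.4% of all tested, and the E-box CACCTG, bound by ZEB and SNAI factors, in 20.4%, 18.4% and 19.4%. The ETS motif CCGGAAGT was in 4.71% above, 5.13% below and 7.54% of all tested, and the IRF motif GAAANNGAA in 4.31%, 4.27% and 6.23%. These shares are descriptions with no test, and the number of promoters with a match was small, 21 above and 9 below for AP-1.

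**Figure D3:**
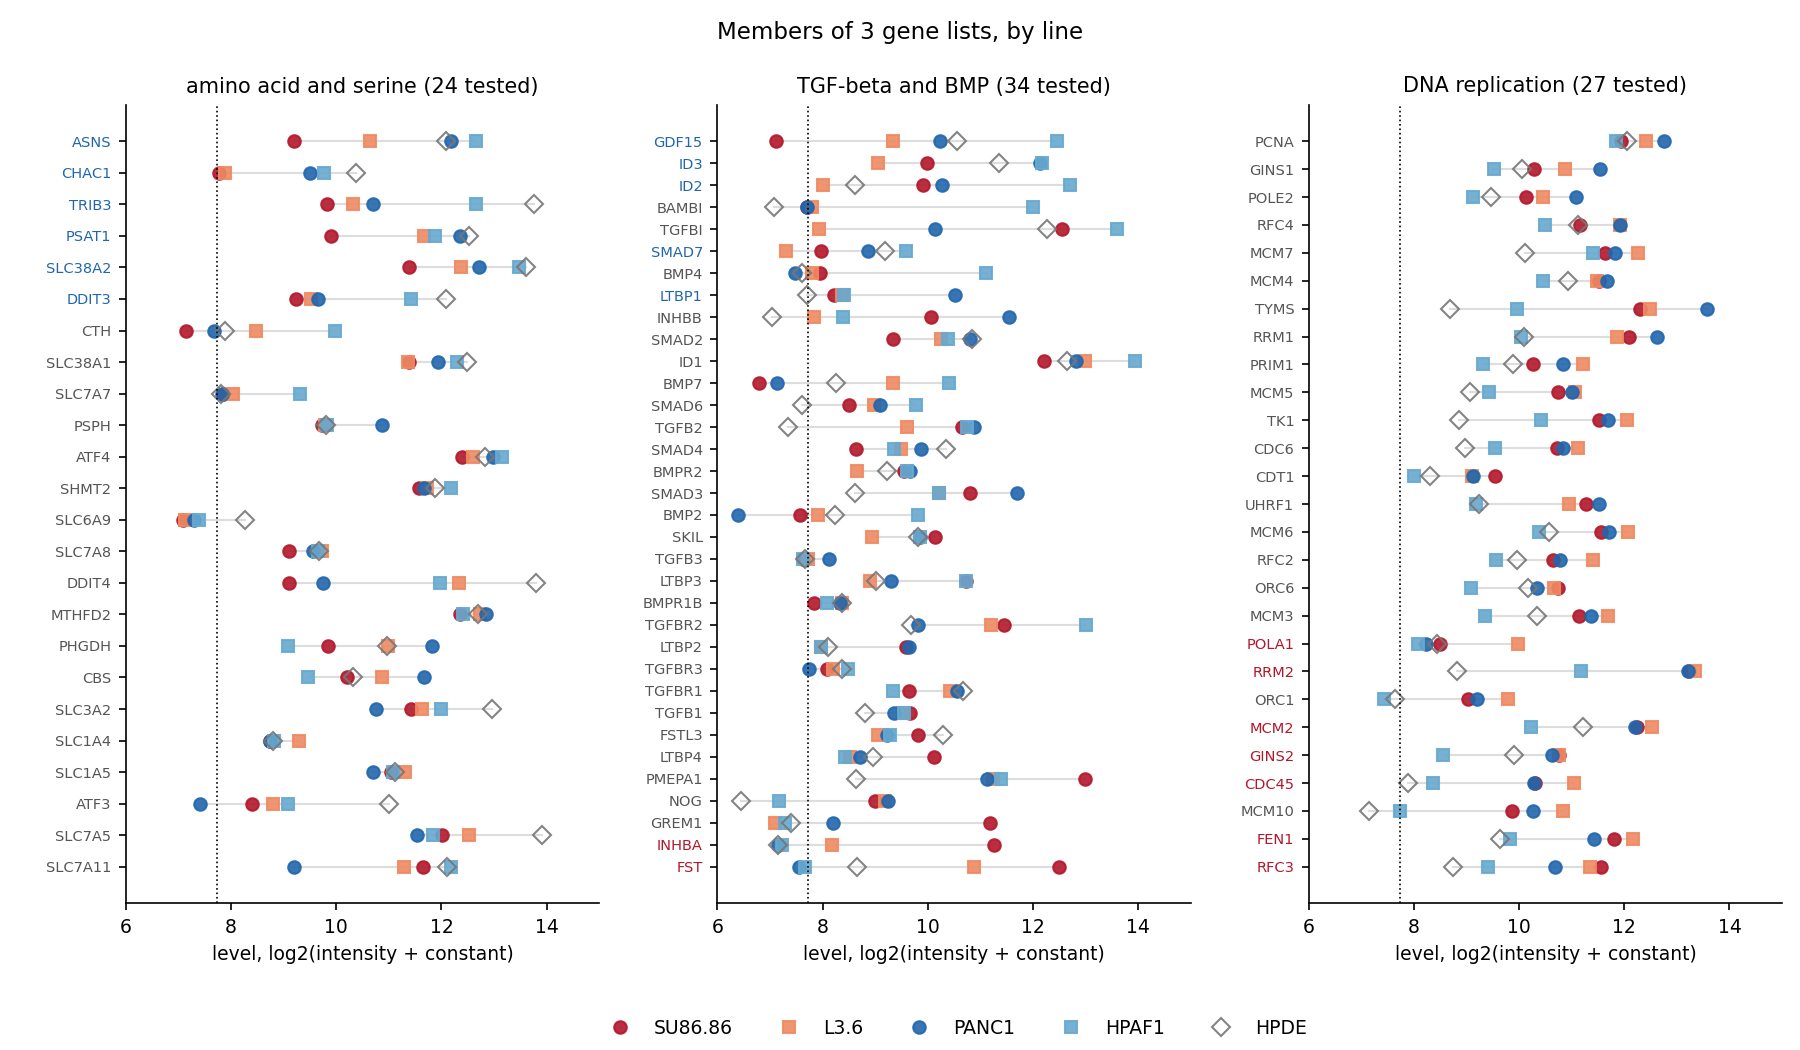
Levels on the horizontal axis, log2(intensity + constant), of every tested member of 3 lists, 1 array per point, with members ordered by their difference from the most negative at the top. Gene names in red were apart by 2-fold above, names in blue below, and the dotted line is the level filter. In the amino acid list the 6 blue names have the red and orange points left of the blue ones, and in the replication list HPAF1 lies left of the other 3 carcinoma lines at most genes.

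Sterol and fatty acid synthesis genes leaned to the lower side, with 14 of 16 differences negative and a median of -0.64. Of these, 3 genes were apart by 2-fold below and 1 above, where 1.93% and 2.2% of all genes were so. INSIG1, the sterol-regulated brake on SREBP, had 7.77 and 8.01 in SU86.86 and L3.6, against 9.45 and 10.94 in PANC1 and HPAF1 (difference -2.31 ± 0.58). The desaturase SCD had 10.25 and 11.93 in SU86.86 and L3.6, against 12.13 and 13.66 in PANC1 and HPAF1. The last enzyme of cholesterol synthesis, DHCR7, had 9.68 and 9.75 in SU86.86 and L3.6, against 10.38 and 11.64 in PANC1 and HPAF1, and the elongase ELOVL6 had 10.88 and 10.36 in SU86.86 and L3.6, against 9.35 and 9.86 in PANC1 and HPAF1. HPAF1 was the highest line for INSIG1, SCD and DHCR7, and without HPAF1 the median of the list was -0.08, against -1.24 without PANC1. With probe sets specific to 1 transcript 1 of 10 was below by 2-fold. Glycolysis and hypoxia genes had 0 of 30 apart by 2-fold above and 2 below, NDRG1 and BNIP3L. Among 26 NRF2 targets HMOX1 was apart by 2-fold below and 0 above.

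DNA replication genes were higher in SU86.86 and L3.6 by their means, and this rested on HPAF1. Of 27 members 7 were apart by 2-fold above and 0 below, where 2.2% of all genes were above, and 26 of 27 differences were positive, with a median of 0.76. Without HPAF1 the median was 0.09 and 1 gene was above, where 4.79% of all genes were. Without PANC1 the median was 1.47 and 25 genes were above, where 7.06% of all genes were. With probe sets specific to 1 transcript 2 of 20 members were above, and averaging the probe sets of each gene gave 4 of 27. FEN1, which trims Okazaki fragments, had 11.81 and 12.17 in SU86.86 and L3.6, against 11.43 and 9.82 in PANC1 and HPAF1. CDC45, part of the replicative helicase, had 10.30 and 11.04 in SU86.86 and L3.6, against 10.29 and 8.36 in PANC1 and HPAF1. RFC3, of the clamp loader, had the widest gap of the list, with 11.56 and 11.34 in SU86.86 and L3.6, against 10.69 and 9.41 in PANC1 and HPAF1. Of 25 mitosis genes 2 were apart by 2-fold above, AURKB and KIF2C, with a median of 0.49 that was -0.31 without HPAF1. The proliferation marker MKI67 overlapped, with 9.87 and 10.84 in SU86.86 and L3.6, against 10.53 and 9.40 in PANC1 and HPAF1. Among 25 cyclin, CDK inhibitor and p53 target genes, RB1 and FAS were apart by 2-fold above and GDF15 below. CDKN2A, a tumour suppressor often deleted in these tumours, overlapped, with 8.02 in SU86.86 and 12.47 in L3.6, against 7.97 in PANC1 and 13.45 in HPAF1.

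Of 18 metastasis suppressors 2 were apart by 2-fold below, GSN and NDRG1, and 0 above, where 1.93% of all genes were below. Averaging the probe sets of each gene, 1 was above and 1 below, and with probe sets specific to 1 transcript 0 of 10 were apart by 2-fold. The actin-severing protein GSN had 10.35 and 8.66 in SU86.86 and L3.6, against 12.004 and 10.51 in PANC1 and HPAF1, and NDRG1 had 7.92 and 9.42 in SU86.86 and L3.6, against 9.50 and 10.55 in PANC1 and HPAF1. Of 30 tetraspanins and surface proteins 2 were below, TM4SF1 and TSPAN15. TM4SF1, a relative of TM4SF18, had 11.91 and 10.86 in SU86.86 and L3.6, against 13.47 and 12.89 in PANC1 and HPAF1, with 8.06 in HPDE. Hepatocyte and liver genes had 11 of 22 measured members at a level to be tested, with 0 apart by 2-fold and a median of -0.09. Angiogenic factors had THBS1 and HBEGF apart by 2-fold above and ANGPTL4 below among 23. THBS1, an inhibitor of angiogenesis, had 12.34 and 9.45 in SU86.86 and L3.6, against 7.37 and 8.57 in PANC1 and HPAF1. VEGFA, the main endothelial growth factor, had 11.002 and 11.03 in SU86.86 and L3.6, between 10.31 in PANC1 and 11.99 in HPAF1.

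In the WNT and Notch list 1 of 37 genes was apart by 2-fold above and 2 below. The Notch ligand DLL1 had 7.08 and 9.53 in SU86.86 and L3.6, against 6.84 and 6.50 in PANC1 and HPAF1, and the ligand JAG1 had 10.08 and 9.90 in SU86.86 and L3.6, against 10.51 and 12.22 in PANC1 and HPAF1. The WNT receptor FZD7 had 8.82 and 8.62 in SU86.86 and L3.6, against 10.38 and 9.71 in PANC1 and HPAF1. Of 17 HOX genes HOXC6 and HOXC9, members of one cluster, were apart by 2-fold below and 0 above. HOXC6 had 8.86 and 9.20 in SU86.86 and L3.6, against 11.53 and 10.13 in PANC1 and HPAF1. Of 23 S100 and annexin genes S100A2 and S100A16 were apart by 2-fold above and 0 below. Housekeeping genes had 0 of 16 apart by 2-fold and a median of -0.01.

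Markers of other cells did not separate the sides by 2-fold. At any size, 2 fibroblast markers and 1 islet marker were apart below and 2 islet markers above, where 15.1% and 13.1% of all genes were so. Of the fibroblast, endothelial, leukocyte, acinar and islet markers that reached the filter, 7, 4, 5, 3 and 5 in number, 0 were apart by 2-fold. The fibroblast collagen gene COL1A2 had 9.91 in L3.6 and 7.37 in SU86.86, against 7.59 and 7.46 in PANC1 and HPAF1. LYZ, a lysozyme that gland cells as well as leukocytes make, had 6.73 and 6.85 in SU86.86 and L3.6, against 6.78 in PANC1 and 13.57 in HPAF1, and it gave the largest overlapping difference of the comparison at -3.38 ± 2.48.

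The genes apart by 2-fold were spread unevenly over the chromosomes. On chromosome 13, 36 of 263 tested genes (13.7%) were apart by 2-fold above and 1 below, against 2.2% and 1.93% of all genes. On chromosome 18, 22 of 220 (10%) were apart by 2-fold below and 0 above. On chromosome 13 the median difference was 0.26 and 68.1% of differences were positive. On chromosome 18 the median was -0.19 and 27.3% were positive, where 47.3% of all genes were positive. Chromosome 20 had 23 of 440 genes (5.23%) below and chromosome X 28 of 483 (5.80%).

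**Figure D4:**
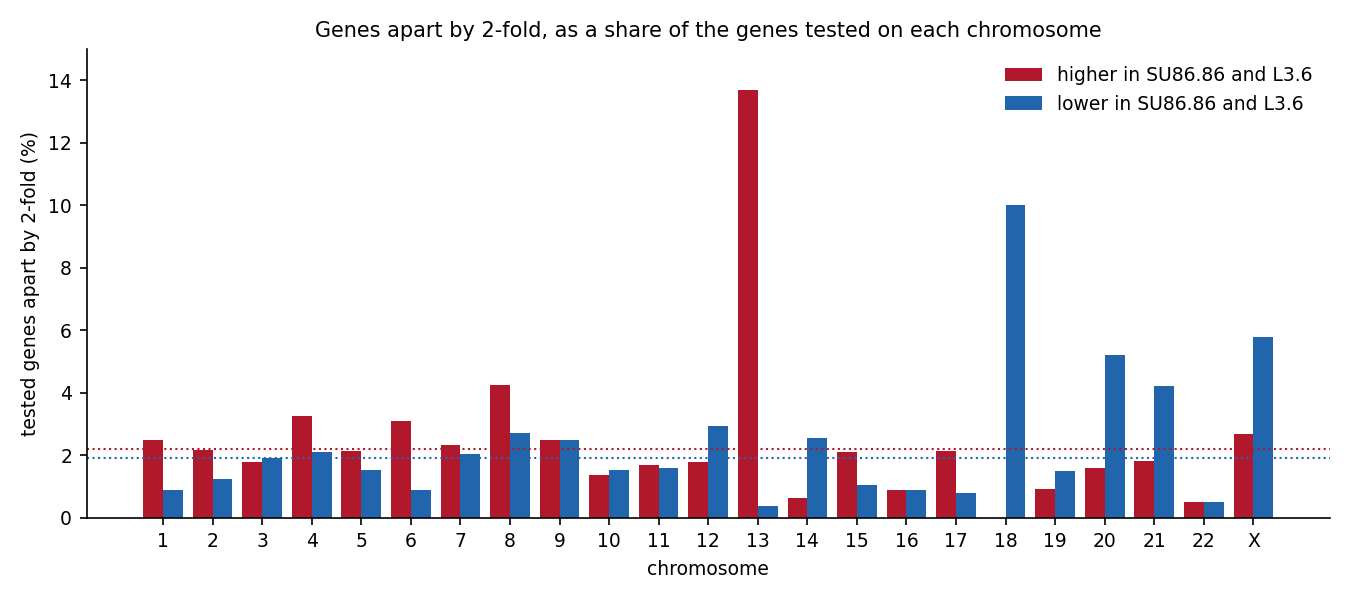
Bars give the percentage of tested genes on each chromosome that were apart by 2-fold, red for higher and blue for lower in SU86.86 and L3.6, and dotted lines give the percentages over all genes, 2.2% and 1.93%. Chromosome 13 stands at 13.7% above and chromosome 18 at 10% below.

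Taken against the mean of the 4 lines, chromosome 13 stood off in SU86.86, PANC1 and HPAF1 more than in L3.6. Chromosome 18 stood off in SU86.86 and PANC1 more than in L3.6 and HPAF1. Each of these lines enters that mean, so a high value in 1 line lowers the values of the others. These medians therefore cannot place a shift in a given line. HPDE does not enter the mean. Against the mean of the 4 lines, the median of chromosome 13 genes was 0.24 in SU86.86 and 0.04 in L3.6, against -0.06 in PANC1 and -0.15 in HPAF1, with -0.09 in HPDE. For chromosome 18 it was -0.18 in SU86.86 and -0.02 in L3.6, against 0.16 in PANC1 and 0.04 in HPAF1, with 0.10 in HPDE. In SU86.86 no other chromosome had a higher median than chromosome 13 and 1, the X, had a lower one than chromosome 18. In L3.6 the median was higher than that of chromosome 13 on 6 other chromosomes and lower than that of chromosome 18 on 4, so that the medians of L3.6 did not set these chromosomes off. Against the same mean, which SU86.86 raises on chromosome 13, that chromosome had the lowest median of the 23 chromosomes in both PANC1 and HPAF1. Chromosome 18 had the highest in PANC1 but not in HPAF1, where 16 other chromosomes had a lower one. Line by line, the chromosome 13 median was 0.29 for SU86.86 minus PANC1, 0.41 for SU86.86 minus HPAF1, 0.09 for L3.6 minus PANC1 and 0.17 for L3.6 minus HPAF1. The matching values on chromosome 18 were -0.26, -0.26, -0.16 and -0.03. When a line was left out, the share of chromosome 13 genes above by 2-fold was lowest without HPAF1, at 10.6% against 4.79% of all genes, and it was 11.8% against 3.72% without SU86.86. For chromosome 18 the lowest share below was 10.9% without SU86.86, against 4.65% of all genes.

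The genes of chromosome 13 on the higher side had varied roles. MZT1, a small component of the microtubule-nucleating complex, had 11.86 and 11.32 in SU86.86 and L3.6, against 10.02 and 9.52 in PANC1 and HPAF1. Its neighbour BORA, an activator of Aurora A, had 10.83 and 9.97 in SU86.86 and L3.6, against 9.34 and 8.07 in PANC1 and HPAF1, and the next gene DIS3, a catalytic subunit of the RNA exosome, had 10.22 and 9.95 in SU86.86 and L3.6, against 9.01 and 8.70 in PANC1 and HPAF1. These 3 genes follow each other in gene order and were all apart by 2-fold. KCTD12, an auxiliary subunit of GABA-B receptors, had 9.87 and 9.50 in SU86.86 and L3.6, against 7.28 and 6.83 in PANC1 and HPAF1. The import receptor IPO5 had 12.34 and 11.83 in SU86.86 and L3.6, against 11.38 and 9.62 in PANC1 and HPAF1. TFDP1, the partner of E2F factors, had 12.38 and 12.01 in SU86.86 and L3.6, against 11.75 and 9.54 in PANC1 and HPAF1. The retinoblastoma gene RB1 had 10.84 and 10.83 in SU86.86 and L3.6, against 10.23 and 9.44 in PANC1 and HPAF1. LCP1, an actin-bundling protein known from leukocytes, had 12.03 and 9.39 in SU86.86 and L3.6, against 7.53 and 7.44 in PANC1 and HPAF1. RFC3, SHISA2 and COL4A1, given above, also lie on this chromosome. The exception below was the pseudogene OR7E37P, with 9.47 and 9.56 in SU86.86 and L3.6, against 10.48 and 10.76 in PANC1 and HPAF1.

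On chromosome 18 the lower genes included TPGS2, a subunit of the tubulin polyglutamylase complex, with 9.46 and 7.20 in SU86.86 and L3.6, against 10.99 and 10.10 in PANC1 and HPAF1. The electron carrier CYB5A had 9.25 and 9.96 in SU86.86 and L3.6, against 11.47 and 11.36 in PANC1 and HPAF1. CNDP2, a cytosolic dipeptidase, had 9.77 and 9.93 in SU86.86 and L3.6, against 11.005 and 11.39 in PANC1 and HPAF1. CNDP2 had near-equal values within each side, whereas CYB5A differed more between SU86.86 and L3.6 than between PANC1 and HPAF1. NARS1, the asparaginyl-tRNA synthetase, had 10.91 and 11.55 in SU86.86 and L3.6, against 12.41 and 12.39 in PANC1 and HPAF1. ATP8B1, a lipid flippase, was set apart by HPAF1, with 8.95 and 7.84 in SU86.86 and L3.6, against 8.96 and 11.02 in PANC1 and HPAF1. RAB27B, SMAD7 and DSC2, described above, lie on this chromosome too, and SMAD4 does as well.

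**Figure D5:**
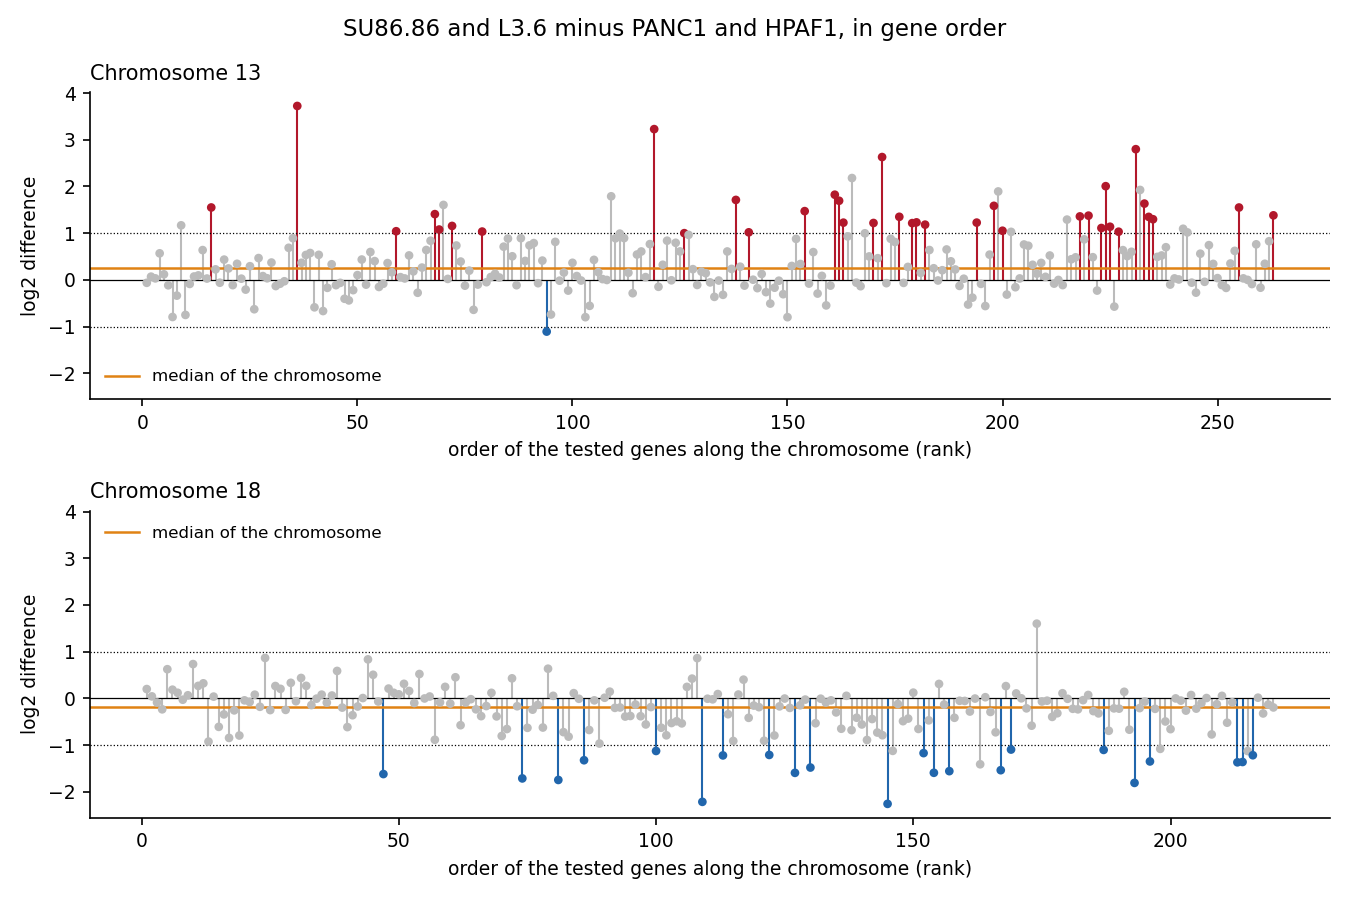
Vertical lines give the log2 difference, SU86.86 and L3.6 minus PANC1 and HPAF1, of each tested gene on chromosome 13 (top) and chromosome 18 (bottom), in gene order. Red marks genes apart by 2-fold above, blue those below, dotted lines a 2-fold difference and the orange line the median of the chromosome, 0.26 and -0.19. The red genes are spread along most of chromosome 13, more densely past the middle of the order. On chromosome 18 the only blue gene before OSBPL1A at rank 74 is SPIRE1 at rank 47, and the others follow to RBFA at rank 216.

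Of 7 mitochondrially encoded genes, 6 were apart below, where 15.1% of all genes were so. COX1 was apart by 2-fold below, where 1.93% of all genes were so. Apart from COX1, the differences lay between -0.55 (ATP6) and -0.37 (ND6). COX1, a core subunit of cytochrome oxidase, had 13.20 and 12.70 in SU86.86 and L3.6, against 14.39 and 14.85 in PANC1 and HPAF1. The NADH dehydrogenase subunit ND4 had 14.21 and 13.74 in SU86.86 and L3.6, against 14.25 and 14.73 in PANC1 and HPAF1. The median of the 7 genes was -0.51.

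HPDE, the duct epithelial line, did not take one side. Of the 327 genes apart by 2-fold above, HPDE lay with or past SU86.86 and L3.6 at 129 (39.4%), between the sides at 70 and with or past PANC1 and HPAF1 at 128 (39.1%). Of the 288 below the numbers were 111 (38.5%), 74 and 103 (35.8%). Large differences on the higher side were often between a measured level and background: for 87 of 327 genes (26.6%) both PANC1 and HPAF1 lay under the filter, and for 32 of 288 genes on the lower side (11.1%) both SU86.86 and L3.6 did.

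Other probe sets of the same genes were not used for the choice. Of the 615 genes apart by 2-fold, 347 had a further probe set, and at 275 of these (79.3%) it was apart in the same direction and at 9 (2.59%) in the opposite one. For genes apart by less than 2-fold the shares were 55.6% and 6.2% of 1758. FST had 2 further probe sets with differences of 2.26 and 3.25, and SYTL2 had 2 with -4.22 and -2.24. TNFAIP3 had 1 with 2.46 and INSIG1 had 2 with -2.07 and -2.05. GINS2, a replication gene at 1.17, had 1 further probe set at -0.06, and IRAK2, at -1.30, had 1 at -0.06. TNS4, at 2.40, had 1 further probe set at 0.13. SOX4, a transcription factor with 9.74 and 9.34 in SU86.86 and L3.6, against 11.42 and 12.50 in PANC1 and HPAF1, had 5 further probe sets, of which 3 were apart in the same direction.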

How the data were processed

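Total RNA of 5 lines was hybridised to Affymetrix arrays, 1 per line. The authors deposited linear intensity values for 54675 probe sets, and their summarisation, background correction and scaling are not given in the sources used here. Values were kept as deposited, since the log2 medians of the arrays had a spread of 0.06, and transformed as log2(intensity + 71.1), the constant being the 25th percentile of positive values. The 62 control probe sets were left out. Of the rest, 41091 probe sets carried 1 symbol, 1801 several and 11721 none in the annotation used. Symbols were brought up to date through a RefSeq gene table (GRCh38.p14), which also gave chromosome and gene order: 41037 matched and 54 kept the older symbol. Of 19775 genes, each read by its probe set with the highest mean, 14894 reached the median of all values (intensity 140) on at least 1 array.

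Sides were compared with limma 3.58.1 (R 4.3.3) on the 4 arrays, tested on simulated data, with Benjamini-Hochberg adjustment over all genes, two-sided, at 0.05. Nothing in the labels gives replicate cultures. Selected for naming were the 15 widest gaps in each direction, the 5 largest overlapping differences and 10 genes named in any case. Up to 4 members per list apart by 2-fold with the largest differences, and the largest overlapping one, were also selected. Not all of these are given above. Left out were LCN2 (2.94) and CDH17 (-2.71) of the 5 largest overlapping differences, and many of the largest overlapping list members. Genes of chromosomes 13 and 18, ATF4, ID1, SLC7A5, PHGDH, KRT14 and NTSR1 were named after their values were seen, as were some further list members and COX1 and ND4. The members and all lists were chosen with earlier results of these data known. Alternatives changed the constant, filter, probe set, normalization, prior trend and the lines used.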

Additional observations from a re-analysis of the deposited data

How the results depend on the processing

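In limma 0 genes passed the threshold under any of the 13 alternatives, with 250 to 1762 at an unadjusted p under 0.05, the highest count being without PANC1. A stricter level filter gave 1237 genes apart below, against 2248, with fewer genes tested. Averaging all probe sets of a gene gave 18 genes of chromosome 13 above by 2-fold (8.04%, against 1.70% of all genes) and 13 of chromosome 18 below (6.77%, against 1.40%), in place of 36 and 22. Leaving out 1 line makes it easier for sides to be apart by construction. It gave 3898 to 5056 genes apart above and 4176 to 5421 below, 554 to 1052 above by 2-fold and 488 to 1048 below by 2-fold, 28 to 64 for chromosome 13 and 24 to 38 for chromosome 18. All other counts of this kind were within 1.5 times. The difference of GINS2 was -0.060 with probe sets specific to 1 transcript, in place of 1.17. For the 95 named genes apart by 2-fold, 739 of 1103 alternative differences moved by less than the residual SD, 363 moved further and 1 reversed. Of 466 list medians 396 stayed within that SD and 70 moved, and the acinar list had no member left under a stricter filter or with probe sets specific to 1 transcript. No paired analysis was possible because each line has 1 array and the labels give no numbers shared between lines. The number of arrays limits the precision, and dim genes near background have only small measured differences.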
